A study of Mus musculus with 4 samples.

Results

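The mitochondrial genome of the mouse carries 37 genes, and DHX9 peaks were read over all of them, on the strand that encodes each gene (sense) and on the other strand (antisense). These are 37 of the 49980 genes with a position in the RefSeq table of GRCm38.p6. They are all the genes placed on the mitochondrial sequence, and the set was chosen with earlier results of these data known. The peaks came from FLASH, a form of CLIP-seq, in which ultraviolet light links RNA to protein, an antibody pulls the protein down and the attached RNA fragments are sequenced. Cells of WT26, a male mouse embryonic stem cell line of C57BL/6x129sV background that grows without feeder cells, were kept in medium with leukemia inhibitory factor. They gave 2 DHX9 samples, in which an anti-DHX9 rabbit antibody was used, and 2 IgG samples, in which rabbit IgG served as the control, with biological replicates A and B in each. No treatment or mutation was named for either group, and the RNA of both groups was purified as 1 mixture after tagging.

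The deposited result was 1 list of 59563 peaks, 49 of them on the mitochondrial genome, each with a position and a strand. No score, height or read count stands in the list, and no value for a single sample. Depth behind a peak is therefore unknown, replicate error could not be given, and the IgG samples enter only through the authors' calling. No comparison below has a test over samples, and a peak cannot tell more RNA from more binding per RNA. All 10 ES cell markers looked up held peaks, from 6 over Sox2 to 151 over Tet1. Of 8 fibroblast markers Fn1 held 63 and Loxl1 held 1, while the collagen genes Col1a1, Col1a2 and Col3a1 held none. Among nuclear protein-coding genes 22.8% held a peak, close to the 25.0% of these 8 markers.

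DHX9 is an RNA helicase that binds and unwinds double-stranded RNA and is known mainly as a nuclear protein. In mammals both strands of the circular mitochondrial genome are copied into long RNAs that start in the control region, the main stretch without genes. The RNA here called plus-strand carries both rRNAs, nearly all mRNAs and most tRNAs, and is cut at the tRNAs that lie between the other genes. Minus-strand RNA carries ND6 and a few tRNAs, and is otherwise antisense to genes and normally short-lived. It is cleared by a complex of the helicase SUV3 (Supv3l1) and the nuclease PNPase (Pnpt1), and paired with plus-strand RNA it is known as a source of mitochondrial double-stranded RNA. Of the 37 genes 28 are encoded on the plus strand and 9, namely ND6 and 8 tRNA genes, on the minus strand.

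DHX9 peaks covered both strands of the mitochondrial genes, and most peaks were antisense. The midpoint of 46 of the 49 peaks lay in a gene, and 31 of these were antisense and 15 sense. The antisense share was 67.4%, with a 95% Wilson interval of 53.0 to 79.1% that covers counting error only and treats neighbouring peaks as independent. In bases the strands were closer: antisense peaks covered 7560 bases, or 49.0% of the summed length of the genes, and sense peaks covered 6640 bases, or 43.0%. The order in bases depended on the narrow peaks. Antisense minus sense cover was 920 bases with all peaks. It was -104 bases when peaks narrower than the list's median of 196 bases were left out. When peaks of 1 strand within 50 bases of each other were merged, 18 antisense and 15 sense peaks were left, and the antisense share was 54.5%.

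Many bases lay under peaks of both strands. Minus-strand peaks covered 50.9% of the whole sequence and plus-strand peaks 41.5%, and 29.1% was covered on both strands at once. Of the bases under minus-strand peaks 57.3% were also under a plus-strand peak, and of those under plus-strand peaks 70.3% were also under a minus-strand peak. Outside the longest stretch without peaks (4221 bases), plus-strand peaks covered 55.9% of all bases and minus-strand peaks 68.7%, close to these shares. Outside that stretch the overlap in bases was thus near what such dense cover gives when the strands are placed independently. Over the whole sequence, where both strands leave that stretch empty, the shares of 57.3% and 70.3% were above 41.5% and 50.9%. Of the 33 minus-strand peaks 25 were overlapped by a plus-strand peak, and of the 16 plus-strand peaks 15 were overlapped by a minus-strand peak. The exception was the plus-strand peak over mt-Rnr2.

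**Figure D1:**
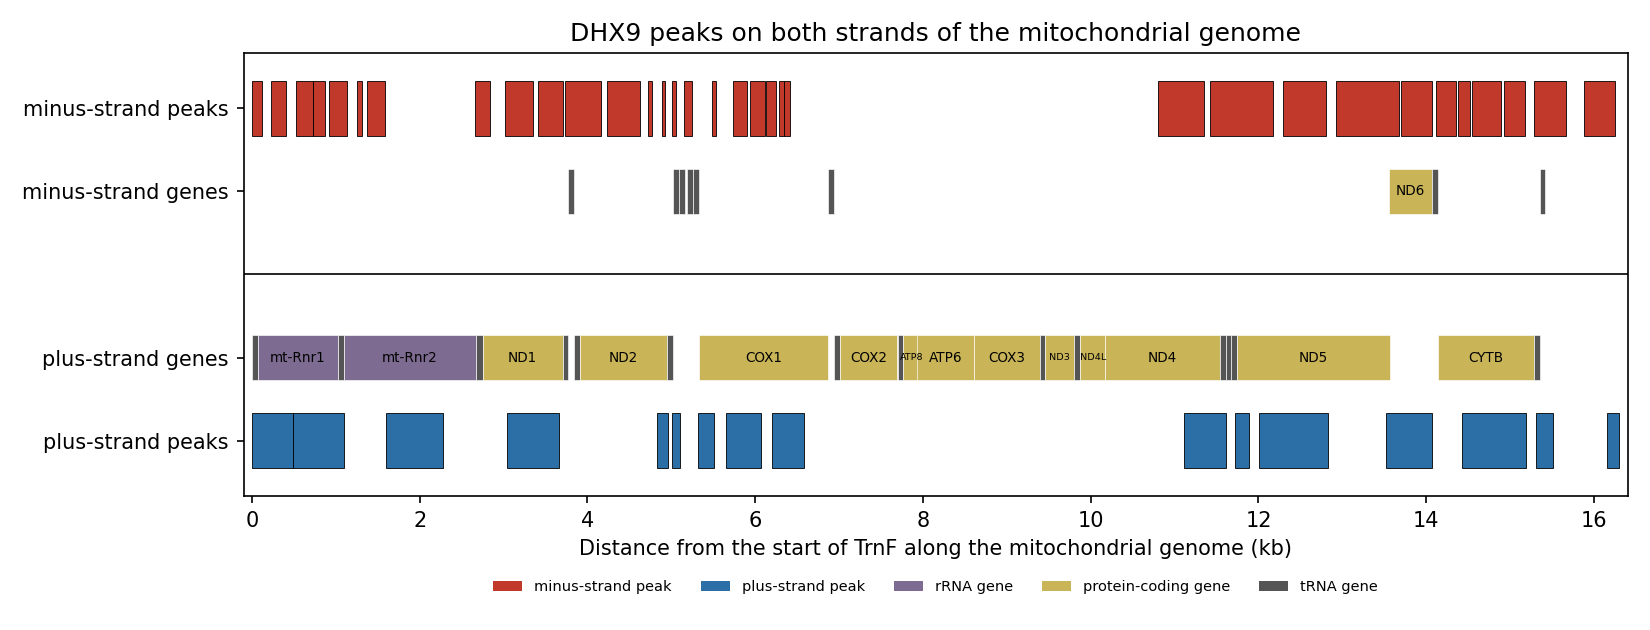
Peaks and genes of the mitochondrial genome, drawn to scale along the distance from the start of TrnF (kb), with minus-strand peaks and genes above the line and plus-strand genes and peaks below it. The 33 minus-strand peaks and 16 plus-strand peaks overlap in part, with 4749 bases under both strands, 3546 under the minus strand alone and 2007 under the plus strand alone. Both strands are empty over the 4221 bases that hold COX2, ATP8, ATP6, COX3, ND3 and ND4L.

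Counted by midpoint, 14 of the 37 genes held a peak on either strand, against 12.0% of all placed genes. An antisense peak was held by 13 genes and a sense peak by 11. In the mitochondrial protein-coding genes both counts were 7 of 13. Among 17492 nuclear protein-coding genes of known strand, 1.84% held an antisense peak and 22.1% a sense peak. By overlap of at least 1 base, 26 of the 37 mitochondrial genes were touched, against 12.3% of all placed genes. Of these 26, 18 were touched on both strands, 5 only antisense and 3 only sense. Genes were not matched on length or on amount of RNA for these shares.

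The 11 genes without any covered base lay side by side in 1 stretch. It ran from base 6579 to base 10799 of the mitochondrial sequence, 4221 bases in all. The stretch holds the whole of COX2 and COX3, subunits of cytochrome c oxidase, ATP8 and ATP6, subunits of ATP synthase, and ND3 and ND4L, subunits of complex I, with 5 tRNA genes (TrnS1, TrnD, TrnK, TrnG and TrnR). The next longest stretch free of peaks on both strands was 388 bases, inside mt-Rnr2. Each of the other 26 genes was touched by a peak. Over these 26, antisense peaks covered 62.5% of the summed gene length and sense peaks 54.9%.

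Part of the empty stretch has a counterpart on chromosome 1. A pseudogene there, Gm10925 (24613971 to 24614651), has mt-Atp6 among its synonyms in the RefSeq table and is 681 bases long, as is ATP6. Below it on the chromosome lies Gm10222 (24612404 to 24612700), a pseudogene of 297 bases, the length of ND4L. The bases between the pseudogenes number 1270, and those between ATP6 and ND4L number 1269. Between them lay 1 peak, of 61 bases, on the plus strand of chromosome 1 (24613084 to 24613144). Its nearest neighbours in the list were 560.4 kb below it and 6204 kb above it. No sequences were compared here. If the copy were inverted and free of gaps, which the order and lengths of the pseudogenes allow but do not show, this peak would lie near the boundary of TrnG and ND3. A nuclear copy of mitochondrial sequence on mouse chromosome 1 is well known, and reads that match such a copy cannot be assigned to 1 place. How the authors' mapping treated them is not given in the sources used here, and their part in the empty stretch was not tested. An absence of peaks over these 11 genes is therefore uncertain.

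The rRNA genes were covered more on the sense than on the antisense strand. mt-Rnr1 encodes the 12S rRNA of the small mitochondrial ribosomal subunit (bases 70 to 1024). Antisense peaks covered 666 of its 955 bases (69.7%) and sense peaks covered all 955. Sense cover came from 2 peaks, 5 to 487 and 488 to 1094, which adjoined each other and together ran from within TrnF to the first base of mt-Rnr2. Antisense cover came from 5 shorter peaks. mt-Rnr2 encodes the 16S rRNA of the large subunit (bases 1094 to 2675). Antisense peaks covered 325 of its 1582 bases (20.5%) and sense peaks 683 (43.2%), and a single base of the gene was under both. There the strands took separate parts: antisense peaks lay before base 1583 and at the far end, and 1 sense peak lay from 1594 to 2275.

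In the protein-coding genes with peaks, antisense cover exceeded sense cover in 6 of 7 genes. Complex I, the NADH dehydrogenase that opens the respiratory chain, has 7 mitochondrially encoded subunits, and 5 of them held peaks on both strands. ND5 had the most antisense bases of all genes, with 1586 of 1824 (87.0%), against 1021 sense (56.0%). ND2 was the most one-sided protein-coding gene with peaks. It had 726 antisense bases (69.9%) and 124 sense bases (11.9%), and of its 5 peaks by midpoint 4 were antisense. The plus strand held no peak from base 3668 to base 4827, the longest plus-strand stretch without one (1160 bases) apart from the empty stretch. ND1 had 721 antisense (75.3%) and 627 sense bases (65.5%), so that its strands were nearly level. ND4 had 675 antisense (49.0%) and 430 sense bases (31.2%), and the 633 bases of ND4 that no peak touched were those nearest to ND4L.

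CYTB encodes cytochrome b, the core subunit of complex III. It held 4 antisense peaks and 1 sense peak by midpoint, yet the cover was 958 bases antisense (83.7%) and 755 sense (66.0%). The single sense peak ran over 755 bases, from 14431 to 15185. COX1, which encodes the catalytic subunit of cytochrome c oxidase, was the protein-coding gene with the most peaks and the only one with more sense than antisense cover. Its 6 antisense peaks covered 637 bases (41.2%) and its 3 sense peaks 981 (63.5%). The antisense peaks of COX1 were 44 to 185 bases wide, and the sense peaks 192 to 415 bases wide.

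ND6 is the one protein-coding gene of the minus strand, so that its antisense peaks are on the plus strand. Antisense peaks covered all of its 519 bases (13552 to 14070), and sense peaks covered 503 (96.9%). Of the protein-coding genes it was the most completely covered on both strands. The antisense peak ran from 13525 to 14070 and the sense peaks from 12922 to 13678 and from 13695 to 14072. The first of these sense peaks had its midpoint in ND5, to which it is antisense.

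**Figure D2:**
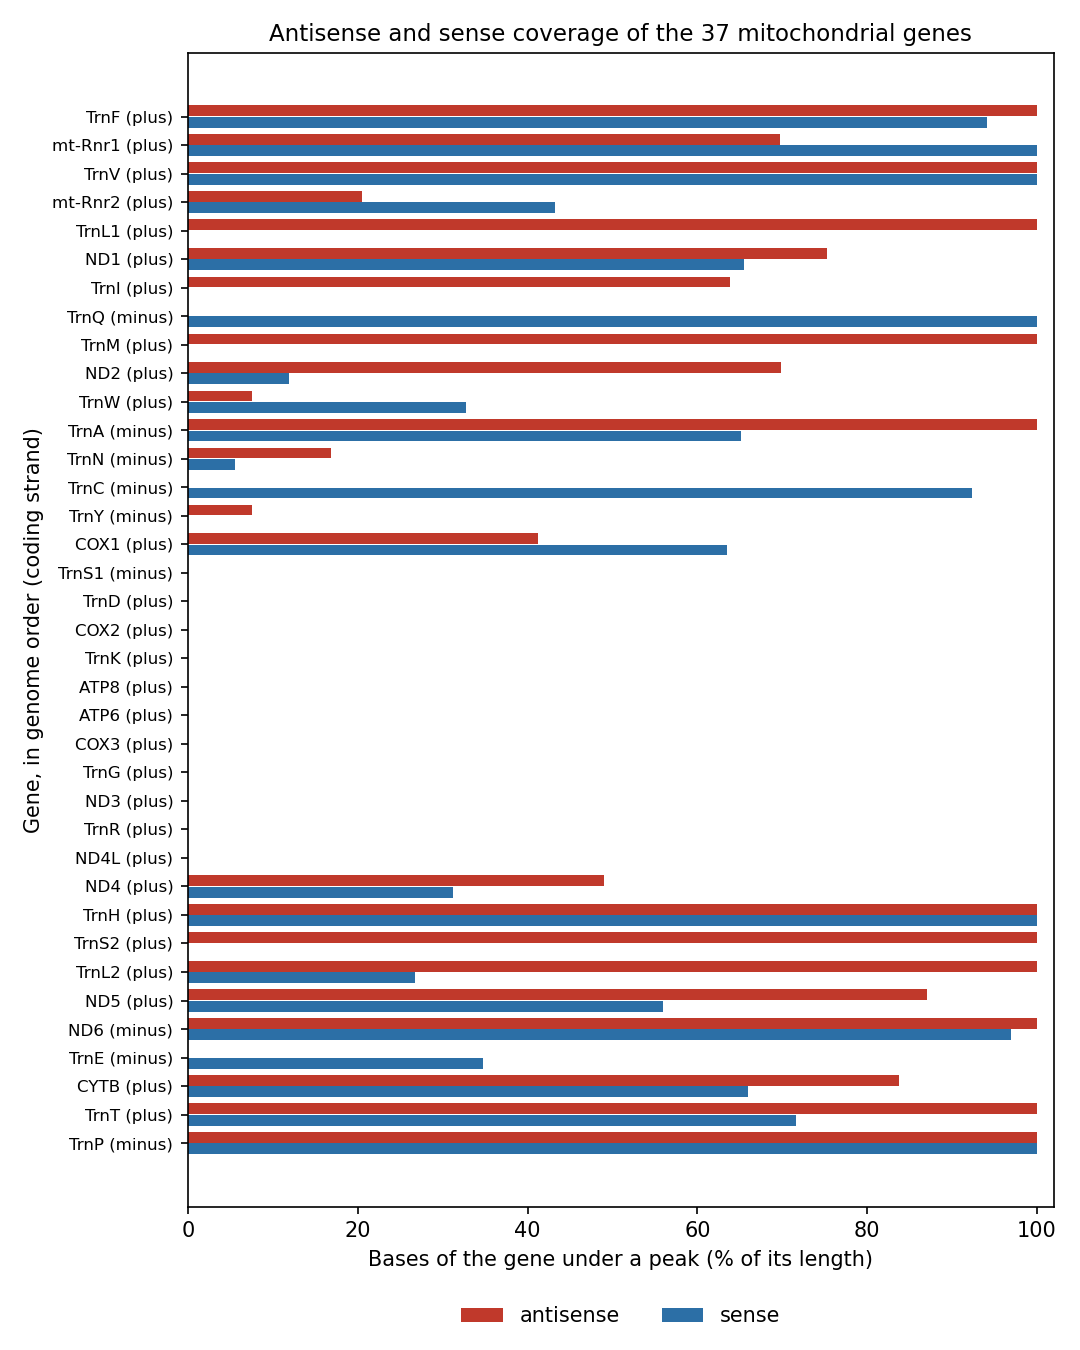
Bases of each of the 37 mitochondrial genes that lay under an antisense peak (upper bar of each pair) or a sense peak (lower bar), in percent of the gene's length, with genes in genome order and the coding strand in brackets. COX1, both rRNA genes and 4 tRNA genes have the longer sense bar. ND2 has 69.9% antisense and 11.9% sense, and the 11 genes without bars lie side by side.

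The tRNA genes, at 59 to 75 bases each, were shorter than most peaks, so that a peak over a tRNA gene usually reached into its neighbours. Of the 22 tRNA genes 17 were touched by a peak, against 28.7% of 408 nuclear tRNA genes in the table. Antisense peaks touched 14 and sense peaks 12, and these counts were 8 and 7 when peaks under 196 bases were left out. In the 14 tRNA genes of the plus strand, 62.4% of the bases were under antisense peaks and 30.4% under sense peaks. In the 8 of the minus strand, the shares were 27.9% antisense and 49.5% sense. In pooled bases the minus strand thus had more cover in both sets. By gene, antisense cover was higher in 7 of the 14 and sense cover in 1. In the 8 of the minus strand these counts were 3 and 3. TrnL1, TrnM and TrnS2 were covered over their whole length on the antisense strand and had no sense cover. TrnQ, a minus-strand gene among plus-strand neighbours, was covered whole on its sense strand by the peak that is antisense to TrnM and ND2 (3735 to 4164). TrnV, TrnH and TrnP were covered whole on both strands.

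More junctions between genes were crossed on the minus strand than on the plus strand, although a larger share of plus-strand peaks reached into a neighbouring gene. At least 2 genes were touched by 12 of the 33 minus-strand peaks and by 9 of the 16 plus-strand peaks. Outside the empty stretch there were 24 junctions between neighbouring genes, and 23 of them involved a tRNA gene. A minus-strand peak ran across 20 of the 24, and a plus-strand peak across 10. Both strands crossed 7, the minus strand alone 13 and the plus strand alone 3. The junction of TrnC and TrnY was crossed by none. One minus-strand peak of 754 bases (11425 to 12178) ran from ND4 through TrnH, TrnS2 and TrnL2 into ND5. On the plus strand, peaks ended within that cluster: 1 ran from 11115 to 11612, the last base of TrnH, and the next began at 11723, within TrnL2. These counts depended on the edges of peaks. With 25 bases taken off both ends of every peak, 13 junctions were crossed on the minus strand and 5 on the plus strand.

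The control region, from base 15423 to the end of the sequence at 16299, was covered more on the minus than on the plus strand. Minus-strand peaks covered 610 of its 877 bases (69.6%) and plus-strand peaks 229 (26.1%), with 179 bases under both. The minus-strand peaks were 15285 to 15666, which began in CYTB, and 15884 to 16249. Plus-strand cover came from a peak over TrnT and TrnP (15308 to 15507) and from a peak at the end of the sequence (16156 to 16299). The linear sequence cuts the circle here, and the next plus-strand peak begins at base 5. Plus-strand cover of the control region was 85 bases when peaks under 196 bases were left out. The 32 bases between TrnN and TrnC, which hold the origin of light-strand replication, were under 1 minus-strand peak and no plus-strand peak.

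Plus-strand peaks were wider and fewer than minus-strand peaks. The 33 minus-strand peaks were 44 to 757 bases wide, with a median of 204. The 16 plus-strand peaks were 90 to 828 bases wide, with a median of 449. Over all 59563 peaks of the list the median was 196 bases and the upper quartile 268. Of the minus-strand peaks 12 and of the plus-strand peaks 10 reached that quartile. Peaks under 100 bases numbered 8 on the minus strand and 1 on the plus strand, and the ranges of the strands overlapped over nearly their whole extent. Of the 8 minus-strand peaks under 100 bases 7 lay between the start of ND2 and the end of COX1, and the 4 over 500 bases all lay from ND4 onward.

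**Figure D3:**
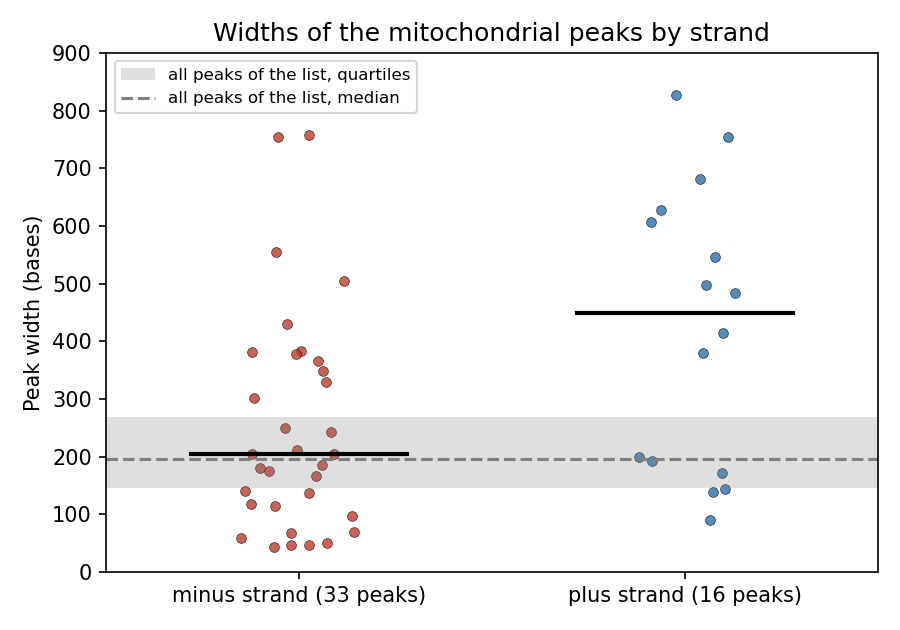
Width of each mitochondrial peak (bases), for the minus strand (33 peaks, left) and the plus strand (16 peaks, right). Black bars are the medians, 204 and 449 bases, and the grey band and dashed line are the quartiles (146 and 268) and the median (196) of all peaks in the list.

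The presence of peaks on both strands set the mitochondrial genes apart from the nuclear genes in this list in size, although the list allows no test over samples. Strands of nuclear genes were taken from the RefSeq promoter table. The comparison used 1016 nuclear genes of known strand that overlapped no other gene and held 5 peaks or more. Among their peaks 120 of 19836 (0.605%, 95% interval 0.506 to 0.723%) were antisense. In the mitochondrial genes the antisense share was 67.4%. Of the 1016 nuclear genes, 986 had no antisense peak and 7 had more antisense than sense peaks. The strand column of the list thus followed the sense strand of nuclear genes. An overlapping peak on the other strand was found for 40 of the 49 mitochondrial peaks (81.6%, 68.6 to 90.0%) and for 191 of 59514 nuclear peaks (0.321%, 0.279 to 0.37%). Wider and denser peaks overlap more often, and these shares were not matched on peak width, peak density or amount of RNA. The mitochondrial genome held 3.01 peaks per kb over both strands. The nuclear genes had a median of 0.565 peaks per kb and a highest value of 3.02, in Cox6a1. Sense cover was 43.0% of the mitochondrial gene length, against a median of 11.8% in the nuclear genes, of which 67 exceeded the mitochondrial value. For antisense cover 1 of the 1016 did. The mitochondrial values of cover and density are pooled, whereas the nuclear values are of single genes over their whole span, introns included. Amounts of RNA were not matched.

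**Figure D4:**
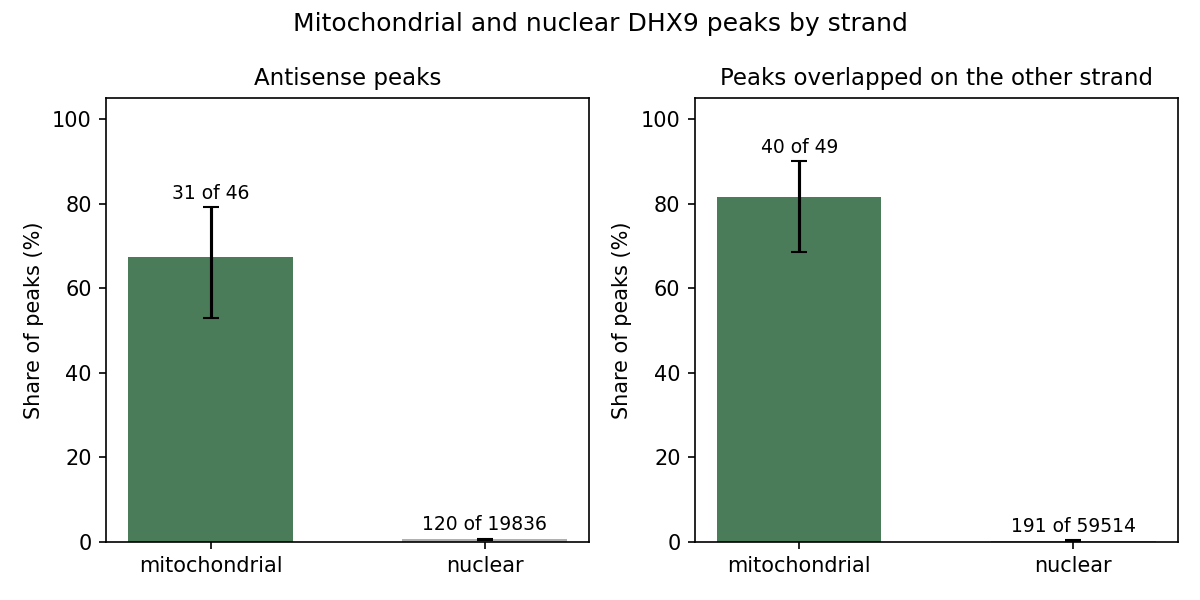
Share of peaks (%) that were antisense to the gene at their midpoint (left panel) and that overlapped a peak on the other strand (right panel), for mitochondrial peaks and nuclear peaks, with 95% Wilson intervals and counts above the bars. The mitochondrial shares are 67.4% and 81.6%, and the nuclear shares are 0.605% and 0.321%. Peak width and density were not matched.

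Peaks of nuclear genes that work with the mitochondrial genes were nearly all sense, as in the 1016 nuclear genes compared above (0.605% antisense). Those genes held 5 peaks or more and overlapped no other gene, limits that were not set for the lists here. Of 71 genes for nuclear-encoded subunits of the respiratory chain and ATP synthase, 31 (43.7%) held a peak by midpoint, against 22.8% of nuclear protein-coding genes. The median was 0 peaks and the highest count 22, over the complex I subunit gene Ndufs1. Ndufa7 and Ndufv2, also of complex I, held 20 each, Ndufs3 and the ATP synthase gene Atp5j2 16 each, and Atp5b, the catalytic beta subunit, 14. In the 60 genes of known strand 0 of 175 peaks were antisense. Of 35 genes for mitochondrial transcription and RNA metabolism found in the table, 19 (54.3%) held a peak, against the same 22.8%. Dhx30, a helicase gene of the same family as Dhx9 whose product acts in mitochondrial ribosome assembly, held 18. Lrpprc, whose product stabilises mitochondrial mRNAs, held 11, the pseudouridine synthase gene Trub2 held 9 and Polrmt, the mitochondrial RNA polymerase gene, held 8. Prorp, the nuclease gene for the 5′ ends of mitochondrial tRNAs, and Twnk, the mitochondrial DNA helicase gene, held 7 each. In the 32 genes of known strand 1 of 89 peaks was antisense, over the DNA polymerase gene Polg. These nuclear lists were not matched on length or RNA amount.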

How the data were processed

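Peaks were called with PEAKachu, per the file's source column, with no version or settings stated there. Bowtie2 2.2.6 and the builds hg19 and mm10 are named in the submitters' processing notes, and mm10 was taken from the chromosome names. There is 1 deposited list for the 2 DHX9 and 2 IgG samples, and its score field is empty in all 59563 rows. How the calling used the IgG samples is not given in the sources used here. Gene positions came from RefSeq (GRCm38.p6). Coding strands of mitochondrial genes are the textbook ones, and those of 27025 nuclear genes came from the RefSeq promoter table. A peak was assigned to the gene at its midpoint, and cover is the union of peaks on a strand. A junction counted as crossed when 1 peak reached at least 1 base past both gene ends. The assignment of peaks to genes, the covered bases, the overlap of peaks between strands and the counts per gene were tested on simulated data. Other steps, such as the crossing of junctions and the merging of peaks, were not. All 37 genes could be named, with up to 6 genes of each nuclear list that held the most peaks; other nuclear genes and single peaks were picked after seeing their values. The members and lists were chosen with earlier results of these data known. One listed gene, Fastkd4, was not matched in the table. Python 3.11.15, pandas 2.3.3, numpy 2.4.6 and scipy 1.17.1 were used.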

Additional observations from a re-analysis of the deposited data

How the results depend on the processing

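Of 43 values recomputed under other settings, 28 stayed within 1.5 times the reported value or within its interval, 14 moved further and 1 turned its direction. Antisense peaks in genes numbered 18 with peaks merged within 50 bases and 16 without peaks narrower than the median. Genes with an antisense peak numbered 23 by any overlap and 20 when 50% of the peak or gene had to be shared, and genes with a sense peak 21 and 17. Antisense minus sense cover was -104 bases without the narrower peaks and 303 bases with 25 bases taken off both ends of each peak. The cause was not tested. The antisense share was 54.5% as merged and 61.5% as filtered by width, and no interval is given for either. Merging left 22 minus-strand peaks of 33 and 14 plus-strand peaks of 16, so that the share depends on how cover is split into peaks. The recomputed shares and differences in cover were chosen after seeing the data. No paired analysis was possible because the list holds no value per sample. Depth sets which peaks could be called and is unknown.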

Other observations

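Some peak edges coincided with annotated gene ends, a comparison chosen after seeing the data. Of the 66 edges of minus-strand peaks 7 lay within 5 bases of a gene's first or last base (10.6%), and of the 32 edges of plus-strand peaks 6 did (18.8%). Such positions make up 3.1% of the mitochondrial sequence. The plus-strand peak of 11115 to 11612 ended on the last base of TrnH, that of 13525 to 14070 on the highest-numbered base of ND6, where this minus-strand gene begins, and that of 488 to 1094 on the base after TrnV. On the minus strand, the peak of 3409 to 3709 ended 2 bases past ND1, and that of 13695 to 14072 reached 2 bases past the start of ND6. The minus-strand peak that starts at base 1 begins where the linear sequence begins, so that its edge is set by the sequence. Peaks that touched at least 2 genes numbered 21 of 49, and the most genes under 1 peak was 5.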
